A study of Mus musculus with 50 samples.

Results

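The cytosolic ribosomal protein genes were described in single mouse oocytes that carry or lack a functional Zfp36l2, a gene for an RNA-binding protein that promotes decay of mRNAs with AU-rich 3′ ends. Members were taken by name: rows that start with Rpl or Rps and a digit, together with Rplp0, Rplp1, Rplp2 and Rpsa, without the ribosomal S6 kinases (9 rows) and without names marked as pseudogenes (5 rows). This gave 86 of the 16614 rows of the deposited count table, 33 named for the small subunit, 52 for the large subunit and Rps19bp1, which codes for a nucleolar protein that binds RPS19 and is not itself part of the ribosome. The study asked which genes differ in oocytes after loss of Zfp36l2. The knockout group held 24 oocytes of conditional Zfp36l2 knockout (cKO-Zfp36l2) females, and the floxed group held 26 oocytes of F/F females, whose Zfp36l2 allele is flanked by recombination sites. Each genotype was sampled from 4 mice, which gave 1, 7, 8 and 8 knockout oocytes and 5, 7, 7 and 7 floxed oocytes. All females were 5 weeks old and had received 10 IU of PMSG, a gonadotrophin, 46 h before collection. All oocytes were at the germinal vesicle stage and were taken into medium with 5 µM milrinone, which holds meiotic arrest, before granulosa cells and zona pellucida were removed. The sources used here name neither the Cre driver nor the strain. The mouse was the replicate, and oocytes of a mouse were summed.

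A cytosolic ribosome is built from a small subunit, which reads the mRNA, and a large subunit, which joins amino acids and passes the chain out through an exit tunnel. Its proteins are needed in near equal numbers, and in most cells their mRNAs begin with a C and a run of pyrimidines, the terminal oligopyrimidine or TOP tract. Through this tract LARP1 and the mTOR pathway set how much of each mRNA is translated and stored. A growing oocyte lays down ribosomes and ribosomal protein mRNAs for the embryo, and once fully grown, at the germinal vesicle stage, it makes little new RNA, so that stored mRNA, its decay and its translation set the levels.

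The start sites are shown because the TOP tract is the feature these mRNAs are known for. In RefSeq annotation of GRCm38.p6, 65 of the 86 genes matched a sequence around an annotated start. The windows printed here run 5′ to 3′ on the gene's strand over 40 bases, with 20 on either side of the annotated start, and capitals mark each run of a C followed by at least 7 pyrimidines. They are the windows of Rps6, the main substrate of the S6 kinases, and of the 6 genes that passed the test between genotypes. Both annotated starts are shown for Rpl19, and for Rps27l the one with a tract.
Rps6, chr4:86857348-86857387, minus strand: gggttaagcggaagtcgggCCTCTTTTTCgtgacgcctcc
Rpl15, chr14:18270967-18271006, minus strand: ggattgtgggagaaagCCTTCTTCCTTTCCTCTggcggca
Rpl19, chr11:98026690-98026729, plus strand: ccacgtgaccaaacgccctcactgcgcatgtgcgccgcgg
Rpl19, chr11:98026904-98026943, plus strand: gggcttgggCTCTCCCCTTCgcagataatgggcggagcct
Rps27l, chr9:66946066-66946105, plus strand: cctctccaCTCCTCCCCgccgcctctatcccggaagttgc
Rpl9, chr5:65391412-65391451, minus strand: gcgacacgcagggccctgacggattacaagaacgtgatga
Rpl10l, chr12:66284382-66284421, minus strand: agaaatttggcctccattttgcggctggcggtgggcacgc
Rpl39l, chr16:10170208-10170247, plus strand: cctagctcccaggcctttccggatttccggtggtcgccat
A tract on the gene's strand lay within the window of 30 of the 65 genes (46.2%), against 15.7% of 12455 genes of the table with a sequence and 16.2% of 68 mitochondrial ribosomal protein genes. A C at the annotated start itself, followed by at least 4 pyrimidines, was found in 13 of the 65 genes, against 3.01% of the same 12455 genes. Rpl15 and Rps6 had both. Of the 6 genes that passed the test, 3 had a tract in the window, and of these Rpl15 was higher and Rpl19 and Rps27l were lower in knockout oocytes. A missing tract says only that these letters are not in this window, and an annotated start need not be the start used in oocytes.

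All libraries were single-cell cDNA libraries made with a SMARTer kit and sequenced. Their total counts ran from 1746007 to 6233840 per oocyte, with a median of 5211210 in knockout and 4761241 in floxed oocytes, and the shallowest libraries were floxed. The values of each sample are shares of its total, given as CPM (counts per 1000000 counts), so fewer mRNAs per oocyte and a smaller share cannot be told apart. No count behind any value is a count of molecules, since PCR copies were not marked. Zfp36l2 stood at 2.77, 1.61, 2.56 and 1.06 CPM in knockout mice, against 3.51, 1.96, 4.17 and 3.44 CPM in floxed mice. Its log2 fold change of -0.78 (SE 0.434) had an adjusted p of 0.208 with edgeR's quasi-likelihood test, and a count over the whole gene does not check the deletion. The 15 oocyte markers, among them Zp3 and Gdf9, summed to 5899 to 6662 CPM in knockout and 5905 to 7287 CPM in floxed mice. Of the 15, Figla alone passed the same test as higher (log2 fold change 0.70, adjusted p = 0.00618). Mos alone passed as lower (-0.32, adjusted p = 0.0159), and 27.6% of all tested genes passed. Of 17 markers of cumulus and granulosa cells, 14 were in the table, and they summed to 421.7 to 511.6 CPM in knockout and 466.7 to 528.4 CPM in floxed mice, mainly through Serpine2, Cyp19a1 and Nr5a2. Single markers differed widely. Cyp19a1 averaged 78.8 CPM in knockout and 82.8 CPM in floxed mice, Inha 35.6 CPM in knockout and 18.8 CPM in floxed mice, and Kitl 40.02 CPM in knockout and 21.3 CPM in floxed mice, with adjusted p of 0.705 for Cyp19a1, 0.067 for Inha and 0.117 for Kitl. Fshr ran from 1.02 to 8.31 CPM in knockout and from 2.98 to 10.9 CPM in floxed mice, and Foxl2 from 0.321 to 0.870 CPM in knockout and from 0.279 to 1.00 CPM in floxed mice. Cyp11a1 was at 0 in 3 of 4 knockout mice, against 1.85 to 6.73 CPM in floxed mice. It was the only marker of the 14 that passed the edgeR test (adjusted p = 0.00245). Inhba was at 0 in knockout mouse 1. The 2 immune cell markers in the table, Cd68 and Lyz2, summed to 1.85 to 6.09 CPM in knockout and 5.16 to 11.7 CPM in floxed mice. What these transcripts contribute to the ribosomal protein values was not tested.

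The 86 genes took up a small part of the counts, with a wider range in floxed than in knockout oocytes. They held 0.538% ± 0.0157 of all counts in knockout mice and 0.566% ± 0.0659 in floxed mice (mean of the oocytes' shares per mouse, SD over 4 mice each). By mouse the share was 0.538%, 0.526%, 0.560% and 0.528% in knockout mice, against 0.601%, 0.639%, 0.497% and 0.525% in floxed mice. The knockout mice lay within the range of the floxed mice, and the difference of -0.0277 percentage points was smaller than the spread between floxed mice. In single oocytes the share ran from 0.443% to 0.666% with a median of 0.539% in knockout, and from 0.447% to 0.938% with a median of 0.525% in floxed oocytes.

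Library total moved with this share. Across oocytes the share and the log2 total had a Pearson correlation of -0.34 in the 24 knockout oocytes and -0.90 in the 26 floxed oocytes, as a description of oocytes that share mice and a total that is also the denominator. The rank correlations were -0.32 in knockout and -0.73 in floxed oocytes. The highest share, 0.938%, belonged to the shallowest oocyte, of floxed mouse 2, and the next highest, 0.763%, to an oocyte of floxed mouse 1 with 2997631 counts. Among oocytes of 4000000 to 5500000 counts, the mice had shares of 0.538%, 0.526%, 0.596% and 0.555% from 15 knockout oocytes, against 0.551%, 0.487%, 0.514% and 0.524% from 16 floxed oocytes. Within that range of totals the mean difference was 0.0349 percentage points, with the knockout share higher, so its sign turned with the oocytes used.

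**Figure D1:**
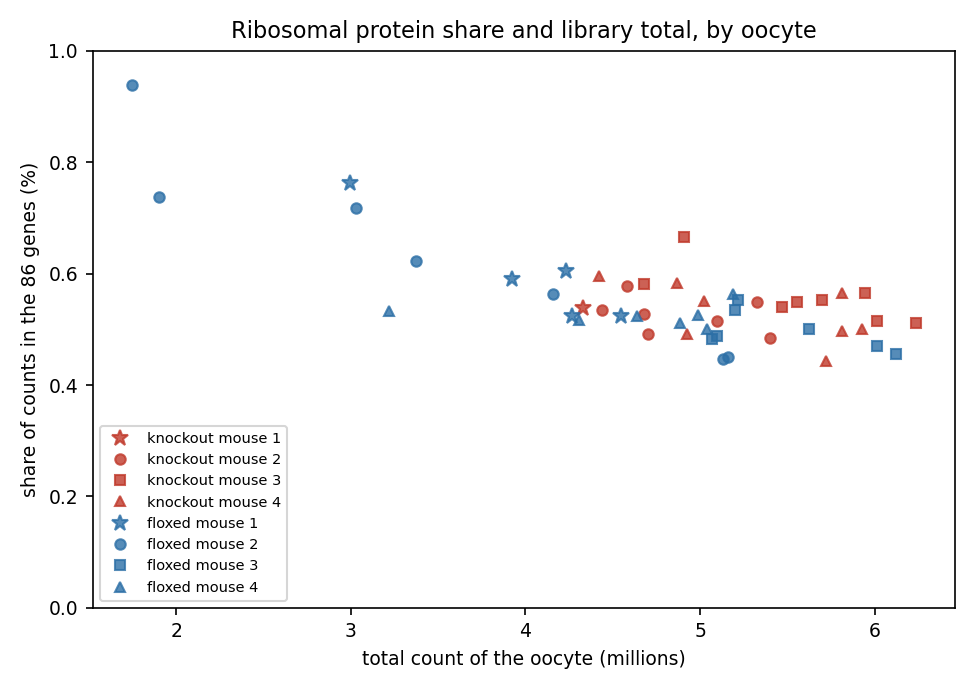
Share of each oocyte's counts in the 86 ribosomal protein genes (y axis, %) against the total count of the oocyte (x axis, in units of 1000000 counts), with knockout oocytes in red, floxed oocytes in blue and a marker shape for each mouse number. Knockout oocytes lie between 0.443% and 0.666%, and the floxed oocytes with the lowest totals reach 0.938%.

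The same held gene by gene. The slope of log2 count on log2 total across oocytes, which is 1 for a gene whose share does not change with depth, had a median of 0.80 over the 86 genes in knockout and 0.51 in floxed oocytes. Other genes of 10 to 300 CPM had medians of 1.13 in knockout and 1.19 in floxed oocytes (9101 genes). The slope was under 1 in 69 of the 86 genes in knockout and 78 in floxed oocytes, against 41.8% of the other genes in knockout and 35.4% in floxed oocytes. In floxed oocytes it was negative for Rps4l (-0.37), Rpl13 (-0.28) and Rpl36 (-0.21), chosen after their values were seen. All slopes pooled the oocytes of all mice of a genotype. Floxed mice 1 and 2 had the lowest mean totals per oocyte, 3993564 and 3499386 counts. The same mice had the highest CPM of Rps4l, Rpl13 and Rpl36 in the floxed group. The negative slopes therefore do not separate depth from mouse, and slopes within a mouse were not tested. The 86 genes have short and densely covered transcripts. Their medians were 802 bases and 0.315 counts per base, against 2698.5 bases and 0.0464 counts per base over all tested genes.

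Levels were compared between genes only per length, as CPM per kilobase of the median annotated transcript (GENCODE annotation of mm10). The median over the 86 genes was 65.97 CPM per kb against 9.703 over all tested genes, and 87.9% of tested genes lay below it. The levels were far from equal: they ran from 2.10 CPM per kb for Rps27 to 459.2 for Rpl37rt, a retrotransposed copy of Rpl37 whose level is uncertain, since reads may fit both genes and its length was matched by symbol. After Rpl37rt came Rpl41, the shortest ribosomal protein, with 208.1 ± 3.51 CPM per kb in knockout and 212.8 ± 22.6 in floxed mice (SD, n = 4 each). Rpl32, a protein of the large subunit, had 193.8 ± 1.82 in knockout and 213.2 ± 22.2 in floxed mice. Within every mouse Rps14 lay below Rpl41 and Rpl32. The order of Rpl41 and Rpl32 is not resolved, since it changed between floxed mice. All of these orders rest on the annotated lengths.

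Rps14, whose loss in people marks a form of myelodysplasia, had 186.6 ± 2.11 CPM per kb in knockout and 191.7 ± 16.7 in floxed mice. Rpl36al, an autosomal copy of the X-linked Rpl36a, had 166.5 ± 4.49 in knockout and 188.2 ± 14.5 in floxed mice. At the other end stood genes of core ribosomal proteins and a copy of one. Rpl26, at the rim of the exit tunnel, had 7.96 ± 0.639 CPM per kb in knockout and 7.64 ± 0.167 in floxed mice. Rpl30, a large subunit protein, had 9.39 ± 0.330 in knockout and 8.67 ± 0.937 in floxed mice. Rps27 had 2.92 ± 1.37 in knockout and 1.27 ± 0.370 in floxed mice, and Rpl10l 11.2 ± 5.27 in knockout and 4.04 ± 1.36 in floxed mice. Ribosomal protein genes have many processed pseudogenes, and how shared reads were counted is unknown here, so these levels are uncertain. With coding length in place of transcript length the median was 112.3 CPM per kb, and the ranks of the 84 genes with a coding length correlated at 0.76 between both lengths. By coding length, Rpl41, Rpl39l and Rpl39 held the highest 3 ranks, and Rps27, Rpl26 and Rpl10l remained the lowest.

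**Figure D2:**
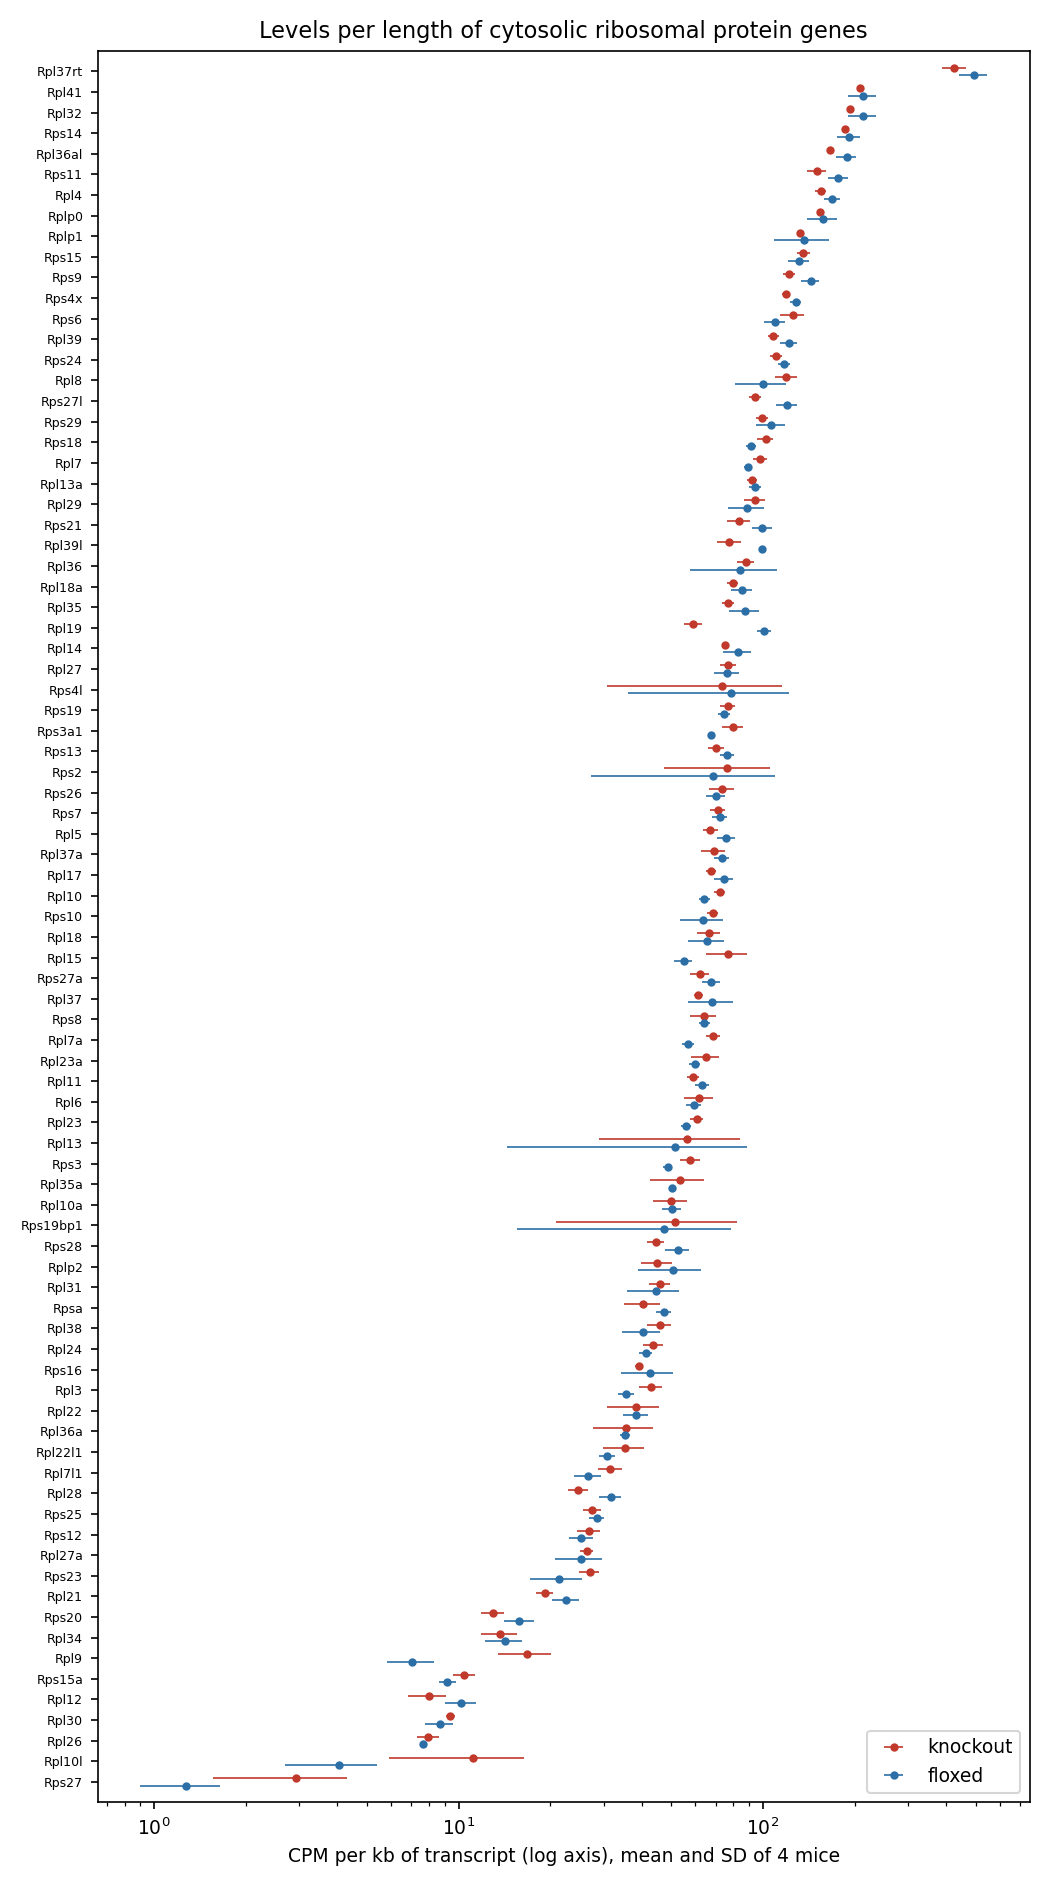
Level of 84 of the 86 genes as CPM per kilobase of annotated transcript (x axis, log scale), ordered by the mean of all mice, with knockout in red above floxed in blue, and bars for the SD over 4 mice. Most genes lie near the median of 65.97, with Rps27 and Rpl10l at the low end and Rpl37rt at the high end at 459.2.

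Between knockout and floxed oocytes, most of the 86 genes differed little. All 86 passed the filter on low counts, and 6 passed an adjusted p of 0.05 in the edgeR quasi-likelihood test fitted on all 15029 tested genes, 3 higher and 3 lower in knockout oocytes. That is 6.98% of the 86, against 27.6% of all tested genes (14.4% higher and 13.2% lower). At an unadjusted p under 0.05 there were 17 of the 86, against 40.0% of all tested genes. The median log2 fold change was -0.05 over the 86 genes, with quartiles at -0.18 and 0.08, and -0.01 over all tested genes, with quartiles at -0.39 and 0.51. By subunit, 1 of 33 small subunit genes passed the test, with a median log2 fold change of -0.09, and 5 of 52 large subunit genes, with a median of -0.03. Over all 86 genes, the median was 0.02 with the mean log2 total per oocyte as a covariate. It was -0.06 with each oocyte weighing the same. Without oocytes under 3000000 counts it was 0.005, and among oocytes of 4000000 to 5500000 counts it was 0.12. All but the value of 0.12 lay within 0.09, the SD of the genes' median log2 level between mice, of the value over all oocytes.

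The precision of these values lets small changes be bounded. The log2 fold change was smaller than 0.5 in size (1.41-fold) for 82 of the 86 genes (95.3%), against 54.1% of all tested genes. The 95% interval lay wholly within 0.5 of zero for 55 genes (64.0%), against 17.4% of all tested genes. The intervals of the 86 genes were also narrower, with a median width of 0.57 against 1.19 over all tested genes. Among genes of 10 to 300 CPM, 4 of 80 ribosomal protein genes passed the test (5.0%), against 30.7% of 9181 genes. Among genes with at least 0.315 counts per base, 4 of 43 passed, against 23.5% of 1836 genes. Whether counts that rise less than the total also compress the fold changes of these short transcripts was not tested.

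**Figure D3:**
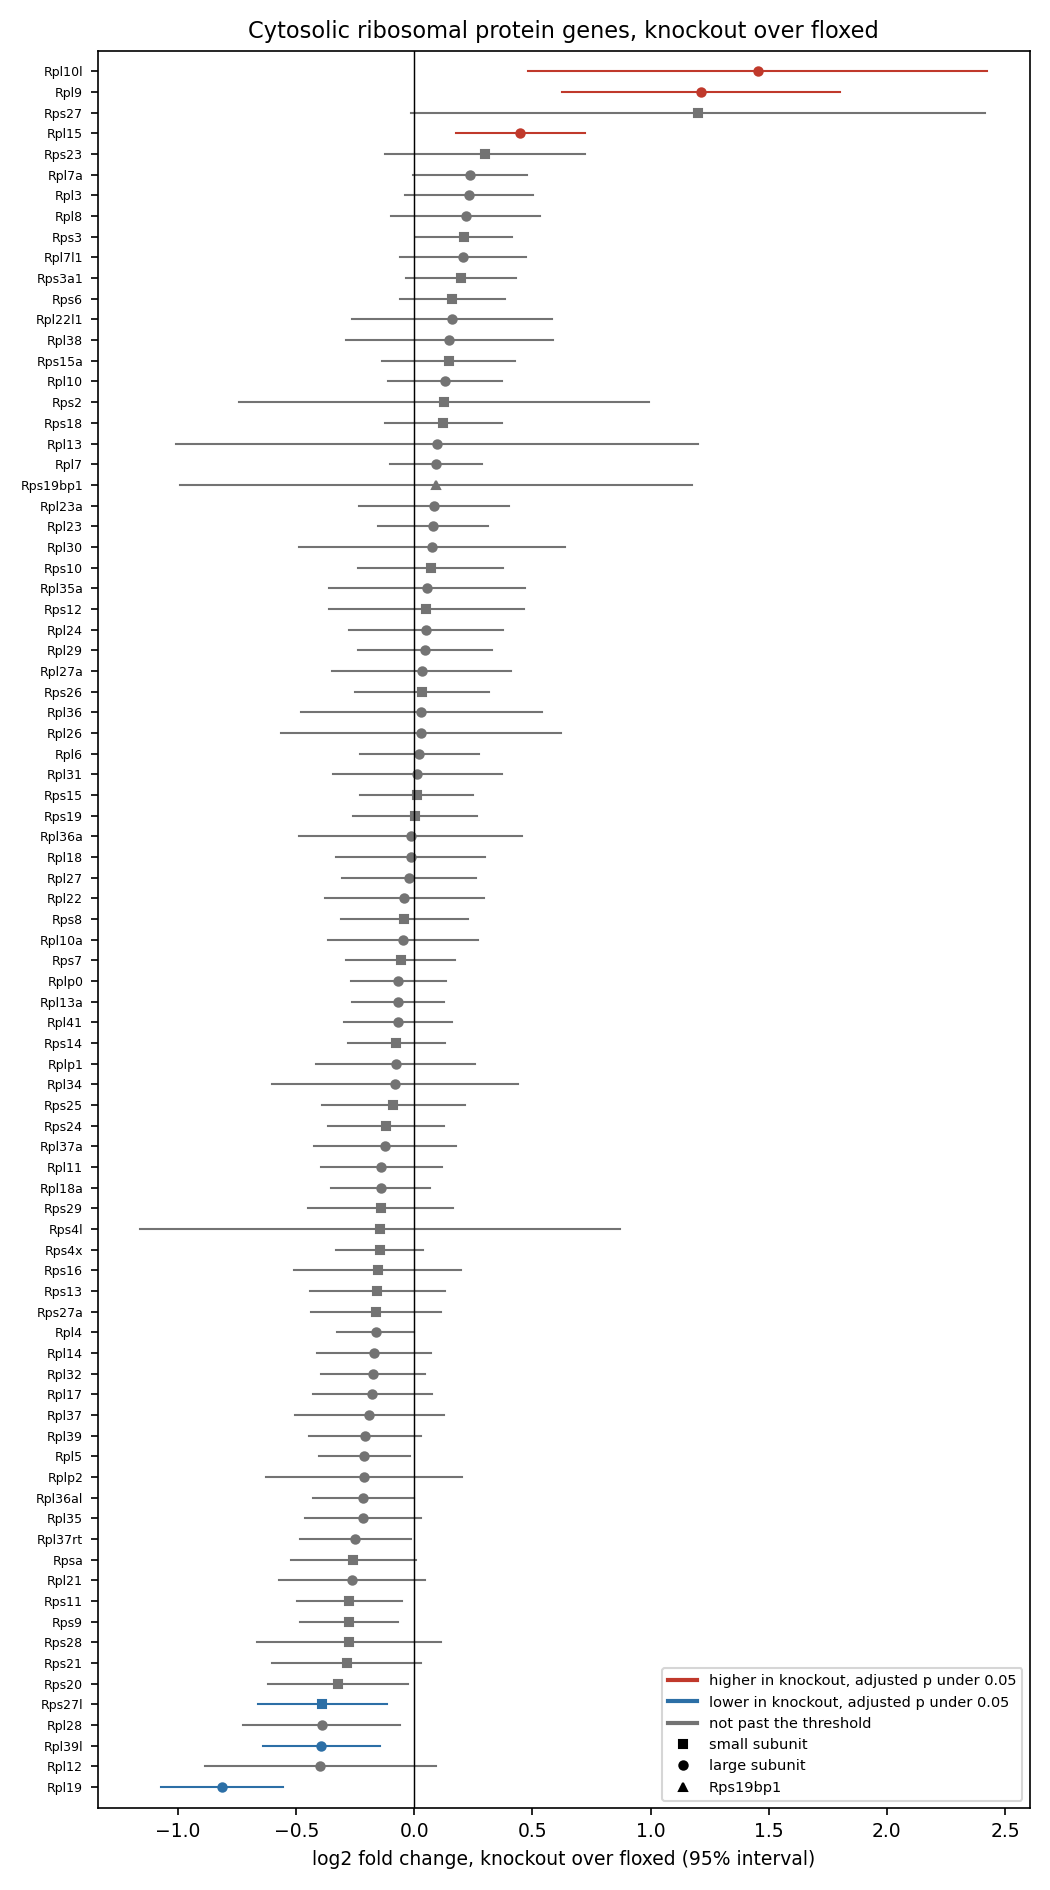
Log2 fold change of 84 of the 86 genes, knockout over floxed (x axis), with its 95% interval from the edgeR fit, squares for small and circles for large subunit genes; red and blue mark genes higher and lower in knockout at an adjusted p under 0.05. Rpl10l and Rpl9 lie farthest right among the 3 higher genes, Rpl19 lies lowest at -0.81, and all points but those of Rpl10l, Rpl9, Rps27 and Rpl19 lie within 0.5 of zero.

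Rpl19, a large subunit protein near the exit tunnel that also reaches across to the small subunit, was lower in knockout oocytes (chromosome 11, 98026710 to 98030492, mm10, plus strand). It stood at 47.3, 44.1, 44.2 and 39.97 CPM in knockout mice, against 76.6, 79.7, 70.3 and 73.5 CPM in floxed mice. Every knockout mouse lay below every floxed mouse, with a wide gap. The log2 fold change was -0.81 (SE 0.115, adjusted p = 0.00138), which is 1.76-fold lower in knockout.

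Rpl9, a large subunit protein close to the base of the stalk that recruits elongation factors, was higher in knockout oocytes (chromosome 5, 65388364 to 65391444, minus strand). It stood at 12.5, 12.8, 15.1 and 9.20 CPM in knockout mice, against 5.36, 3.96, 6.18 and 5.30 CPM in floxed mice. The groups did not overlap. The log2 fold change was 1.21 (SE 0.263, adjusted p = 0.00879), 2.32-fold. Rpl9 has one of the lowest levels per length of the 86 genes, with 16.8 ± 3.27 CPM per kb in knockout and 7.05 ± 1.25 in floxed mice (SD, n = 4 each).

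Rpl15, a large subunit protein whose start carries the long tract printed among the sequences, was also higher (chromosome 14, 18267823 to 18271391, minus strand). It had 116.8, 149.6, 172.2 and 152.6 CPM in knockout mice, against 104.6, 95.9, 109.1 and 112.6 CPM in floxed mice. Knockout mouse 1, with its single oocyte, lay closest to the floxed mice, and the groups did not overlap. The log2 fold change was 0.45 (SE 0.121, adjusted p = 0.0232).

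Rpl10l, a copy of Rpl10 without introns that is best known from spermatogenesis in mice, was the last of the 3 higher genes (chromosome 12, 66283379 to 66284401, minus strand). It had 3.92, 11.3, 16.1 and 14.4 CPM in knockout mice, against 5.81, 4.33, 3.99 and 2.42 CPM in floxed mice. Knockout mouse 1 lay within the floxed range, and the other 3 knockout mice lay above it. The log2 fold change was 1.45 (SE 0.433, adjusted p = 0.0338). Single oocytes spread widely, with 2.14 to 41.4 CPM and a median of 11.2 in knockout and 0 to 9.16 CPM and a median of 3.66 in floxed oocytes.

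Rpl39l and Rps27l, copies of Rpl39 and Rps27, were lower in knockout oocytes. Rpl39l, a short protein that lines the exit tunnel (chromosome 16, 10170226 to 10174911, plus strand), had 68.1, 65.4, 60.8 and 55.4 CPM in knockout mice, against 81.0, 80.4, 76.9 and 80.8 CPM in floxed mice. Its groups did not overlap, and the log2 fold change was -0.39 (SE 0.110, adjusted p = 0.0265). Rps27l, known as a target of p53 (chromosome 9, 66946086 to 66949516, plus strand), had 49.4, 48.2, 45.3 and 45.5 CPM in knockout mice, against 58.2, 65.2, 54.3 and 62.3 CPM in floxed mice. Again the groups did not overlap, and the log2 fold change was -0.39 (SE 0.122, adjusted p = 0.0399).

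**Figure D4:**
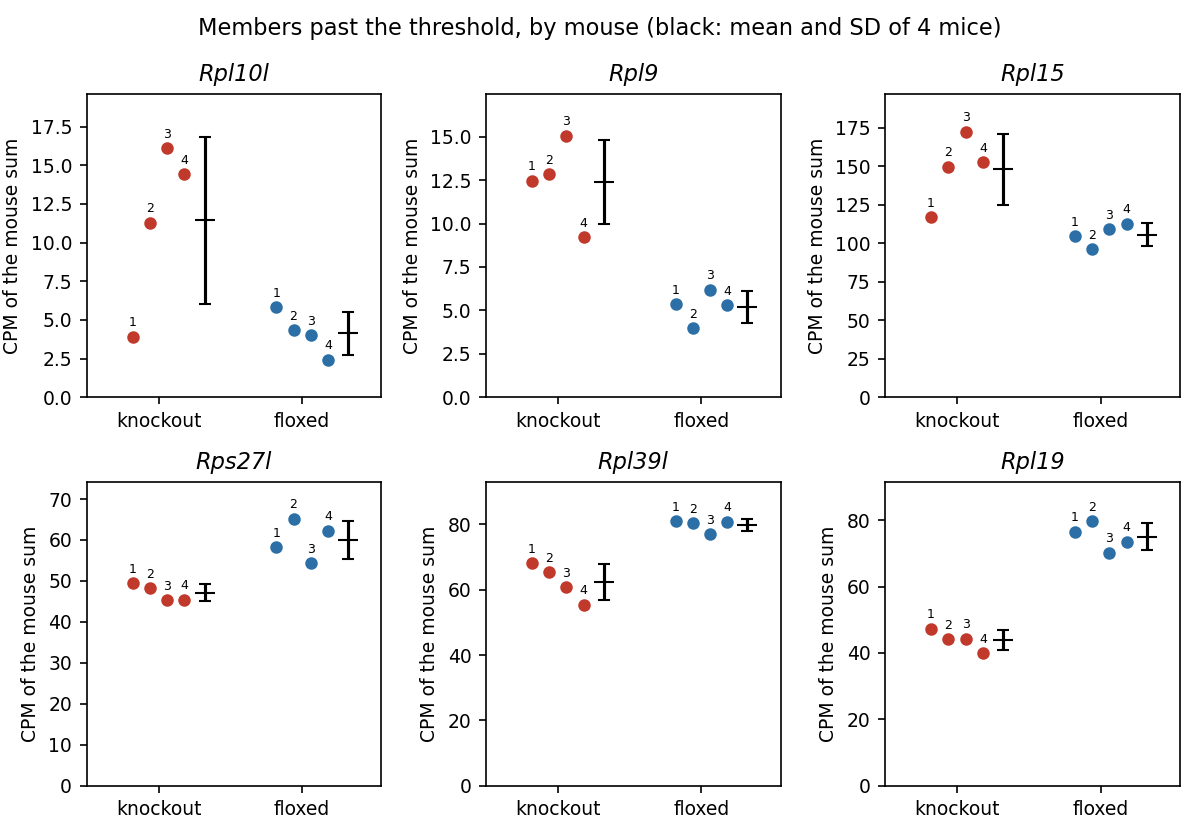
CPM of the mouse sum (y axis) for the 6 genes with an adjusted p under 0.05, one panel per gene, with knockout mice in red left of floxed mice in blue, numbers for the mouse and a black bar for the mean and SD of 4 mice. Knockout mouse 1 sits among the floxed mice for Rpl10l at 3.92 CPM, and the groups are apart in the other 5 panels.

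The 6 calls differed in how firmly they held. Rpl9 and Rpl19 passed in all 18 alternative fits, Rpl15 and Rpl39l in 13, Rps27l in 10 and Rpl10l in 9. Without floxed mouse 2, the mouse with the shallowest oocytes, Rpl9 and Rpl19 alone passed, and 18.5% of all tested genes did. The same 2 alone passed without knockout mouse 3, against 19.8% of all tested genes, and with the mean log2 total as a covariate, against 24.4%. Among oocytes of 4000000 to 5500000 counts, Rpl8 and Rps3 passed as higher beside Rpl9, Rpl10l and Rpl15, and Rpl19 alone as lower, against 23.9% of all genes tested there. Their log2 fold changes in the other fits kept their sign.

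The knockout and floxed ranges of mouse values did not overlap for 15 of the 86 genes, 7 above and 8 below (17.4%, against 31.0% of all tested genes, of which 16.0% lay above and 15.0% below). Of these, 10 did not pass the adjusted test. Rps9, a small subunit protein beside the channel where mRNA enters, had 95.8, 86.2, 91.7 and 92.2 CPM in knockout mice, against 110.5, 116.0, 98.9 and 105.6 CPM in floxed mice (log2 fold change -0.28, adjusted p = 0.0523). Rpl28, which is found in animals and not in yeast, had 26.6, 26.0, 30.4 and 26.2 CPM in knockout mice, against 34.9, 39.1, 32.9 and 32.7 CPM in floxed mice (-0.39, adjusted p = 0.0773). Rps9, Rpl28 and Rpl39 lay below the floxed range, with log2 fold changes from -0.39 to -0.21.

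On the other side, Rps3, a small subunit protein at the mRNA entry that is ubiquitylated on collided ribosomes, had 98.8, 113.0, 117.8 and 111.2 CPM in knockout mice, against 96.3, 92.8, 88.5 and 93.9 CPM in floxed mice (0.21, adjusted p = 0.114). Rpl7a, a large subunit protein, had 59.6, 60.3, 67.0 and 63.5 CPM in knockout mice, against 54.7, 49.97, 49.97 and 52.5 CPM in floxed mice (0.24, adjusted p = 0.132). Rpl3, which reaches towards the site of peptide bond formation, had 54.9, 54.5, 65.1 and 56.9 CPM in knockout mice, against 44.3 to 50.3 CPM in floxed mice (0.23, adjusted p = 0.184). These gaps were narrow, and no change was called for these 10 genes. Under DESeq2, 4 of the 86 genes passed as higher and 9 as lower, against 33.4% of all genes it tested. Without mouse 1 of both genotypes 3 passed as higher and 8 as lower, among them Rps9, against 43.9% of all genes tested in that fit.

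The genes were also grouped by role, in groups too small to be set against the 27.6% of all tested genes that passed. Of the 3 proteins of the P stalk, which recruits elongation factors, none passed the test. Rplp0 had 203.6, 209.3, 217.3 and 208.5 CPM in knockout mice, against 231.8, 235.0, 182.5 and 207.1 CPM in floxed mice, and the log2 fold change was -0.07 with a 95% interval from -0.27 to 0.13 (adjusted p = 0.616). Rplp1 had 66.2 ± 1.93 CPM in knockout and 68.3 ± 14.1 in floxed mice. Rplp2 had 43.3 ± 4.98 CPM in knockout and 48.9 ± 11.3 in floxed mice. For all 3 the floxed mice spread more than the knockout mice and enclosed their mean.

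The pair that binds 5S RNA and can hold MDM2 away from p53 was not called either. Rpl5 had 137.5 ± 7.85 CPM in knockout and 154.9 ± 10.7 in floxed mice (log2 fold change -0.21, adjusted p = 0.0951). Rpl11 had 48.99 ± 2.17 CPM in knockout and 52.6 ± 2.94 in floxed mice (-0.14, adjusted p = 0.396). Of 8 proteins at the exit tunnel and its rim, Rpl19 alone passed, and the median log2 fold change of the 8 was -0.17. None of the 4 small subunit proteins that are ubiquitylated on collided ribosomes (Rps2, Rps3, Rps10 and Rps20) passed. Rps6 had 110.0 ± 10.2 CPM in knockout and 95.99 ± 7.51 in floxed mice (0.16, adjusted p = 0.260). Rps19, mutated in Diamond-Blackfan anaemia in people, had 48.5 ± 2.67 CPM in knockout and 47.2 ± 2.13 in floxed mice, with a log2 fold change of 0.00 and a 95% interval from -0.26 to 0.26. Rpsa, which also serves as a laminin receptor, had 78.4 ± 10.8 CPM in knockout and 91.5 ± 4.99 in floxed mice (-0.26, adjusted p = 0.136).

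Several ribosomal protein genes have a copy, and oocytes held transcripts of gene and copy to very different degrees. Rps4l is among these copies, although the annotation used here gives it no coding sequence. The copy's part of the pair's level per length was compared in 7 pairs, as a description without a test. Rps27l held 97.0% ± 1.40 of the level of its pair with Rps27 in knockout and 98.9% ± 0.354 in floxed mice (SD, n = 4 each). Rpl36al held 82.5% ± 3.31 of its pair with Rpl36a in knockout and 84.2% ± 1.54 in floxed mice. In both pairs the copy was the main transcript.

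In 3 further pairs gene and copy were closer to equal by transcript length. Rpl22l1 held 48.1% ± 1.88 of its pair with Rpl22 in knockout and 44.6% ± 1.17 in floxed mice, Rpl39l 41.7% ± 1.47 of its pair with Rpl39 in knockout and 44.9% ± 1.33 in floxed mice, and Rps4l 36.2% ± 11.9 of its pair with Rps4x in knockout and 36.0% ± 12.8 in floxed mice. Rpl7l1, a relative of Rpl7 that acts in ribosome assembly, held 24.4% ± 2.12 in knockout and 22.9% ± 2.29 in floxed mice. The ranges of the mice overlapped in each of these pairs. Rpl10l held 13.0% ± 5.41 of its pair with Rpl10 in knockout and 5.86% ± 1.69 in floxed mice, from 5.35% to 17.4% in knockout and from 3.63% to 7.70% in floxed mice. Rpl39 and Rpl39l were both below the floxed range in all knockout mice, with log2 fold changes of -0.21 for Rpl39 and -0.39 for Rpl39l. None of the 4 X-linked genes (Rpl39, Rpl36a, Rpl10 and Rps4x) passed the test, and their median log2 fold change was -0.08. Reads that fit both a gene and its copy make each of these values uncertain, and the length used also shifts them. By coding length, Rpl22l1 had 49.8 CPM per kb against 204.1 for Rpl22 (means of all mice). Rpl7l1 had 102.6 against 130.0 for Rpl7, and Rpl39l 464.7 against 460.1 for Rpl39. Rps27l and Rpl36al stayed above Rps27 and Rpl36a, and Rpl10l stayed below Rpl10.

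Rps27 itself was at the limit of detection. It had 0.462, 1.87, 1.28 and 1.60 CPM in knockout mice, against 0.401, 0.449, 0.730 and 0.682 CPM in floxed mice, and its highest count in any oocyte was 16. Knockout mouse 1 lay within the floxed range. The log2 fold change was 1.20 with a 95% interval from -0.01 to 2.42 (adjusted p = 0.128). At least 1 count was found in 24 of 24 knockout and 17 of 26 floxed oocytes, with the floxed libraries shallower at the median. Rpl10l had a count in all 24 knockout oocytes and in 25 of 26 floxed oocytes, and the other 84 genes had a count in all 50 oocytes.

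The genes were more even between oocytes of a mouse than other genes of their abundance in most mice. The SD of log2(CPM + 1) between oocytes had a median over the genes of 10 or more CPM of 0.14, 0.16 and 0.20 in knockout mice 2, 3 and 4, against 0.31, 0.31 and 0.30 for other genes of 10 to 300 CPM. In floxed mice 1 to 4 it was 0.26, 0.43, 0.15 and 0.12, against 0.26, 0.37, 0.26 and 0.27 for the other genes. Floxed mouse 2 had the largest range of library totals and floxed mouse 1 the next highest spread. With every oocyte thinned to 3000000 counts, which left out 3 oocytes, floxed mouse 2 had 0.35 for the ribosomal protein genes against 0.30 for the other genes, and it remained the only mouse in which they spread more.

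Among the genes with a mean of 10 or more CPM, Rpl5, Rps6 and Rps4x were the most even. Their mean SD over mice was 0.12 for Rpl5, 0.14 for Rps6 and 0.15 for Rps4x. At that level Rps4l had the largest at 0.60, followed by Rpl12 at 0.41, Rpl13 at 0.38, Rps19bp1 at 0.37 and Rpl36 at 0.34. Below 10 CPM, Rpl10l had 0.85, Rpl9 0.63, Rps27 0.52 and Rpl34 0.35, while Rpl26 had 0.33 and Rpl30 0.25. Rps4l ran from 17.9 to 128.6 CPM in knockout and from 16.0 to 175.8 CPM in floxed oocytes. Rpl12, a large subunit protein at the base of the stalk, ran from 4.58 to 17.9 CPM in knockout and from 7.47 to 36.1 CPM in floxed oocytes.

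A few genes differed between mice far more than between genotypes, with mouse 1 high in both genotypes. Rps19bp1 had 81.7, 31.9, 29.1 and 30.0 CPM in knockout mice, against 77.5, 37.6, 23.3 and 19.7 CPM in floxed mice. Rpl13, a large subunit protein, had 75.7, 36.8, 29.6 and 33.7 CPM in knockout mice, against 80.0, 43.6, 19.6 and 17.8 CPM in floxed mice. Mouse 1 was the highest of its group in both genes and both genotypes, with 2.69 times the mean of mice 2 to 4 in knockout and 2.88 times in floxed mice for Rps19bp1, and 2.27 times in knockout and 2.97 times in floxed mice for Rpl13.

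Rps2, a small subunit protein, had 119.3, 64.8, 56.2 and 64.1 CPM in knockout mice, against 126.9, 66.3, 40.04 and 39.8 CPM in floxed mice. Rps4l had 128.6, 46.8, 44.0 and 57.0 CPM in knockout mice, against 116.6, 100.4, 37.2 and 42.5 CPM in floxed mice. In the floxed group mouse 2 also stood above mice 3 and 4 for all 4 genes. Their 95% intervals for the difference between genotypes were wide, from -1.16 to 0.87 for Rps4l, and the adjusted p of each was 0.841 or more in the edgeR test.

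These 4 genes were chosen after their values were seen. A value of at least 2 times that of the other mice in mouse 1 of both genotypes was found for Rps19bp1 and Rpl13, 2.33% of the 86 genes, against 5.2% of all tested genes. For 78 of the 86 genes (90.7%) mouse 1 lay within 1.5-fold of the others in both genotypes, against 44.4% of all tested genes. Knockout mouse 1 is a single oocyte, and the labels do not say that a mouse number is shared between genotypes.

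**Figure D5:**
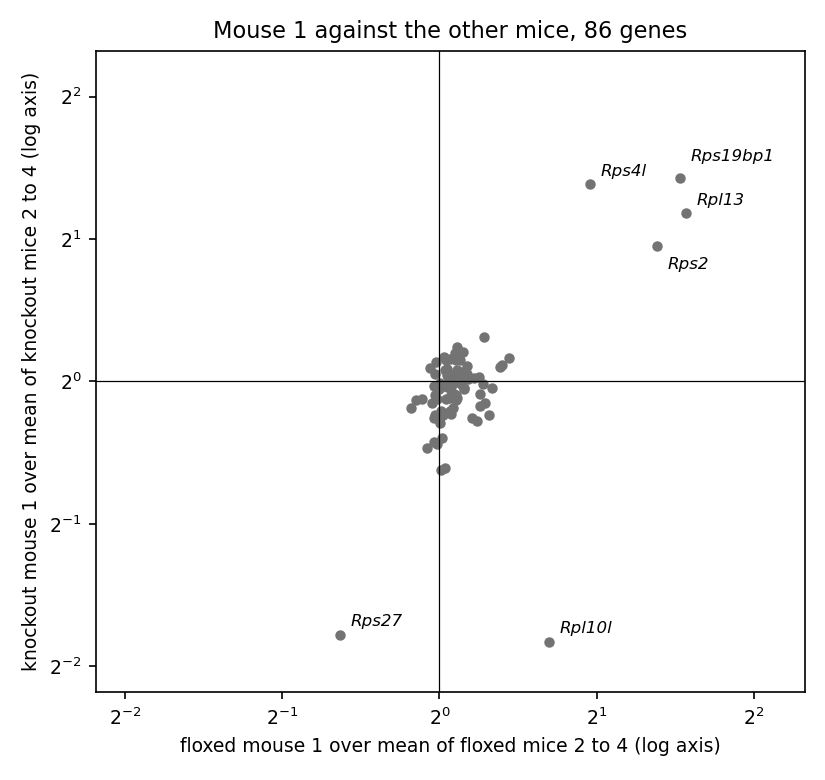
For each of the 86 genes, CPM of knockout mouse 1 over the mean of knockout mice 2 to 4 (y axis, log scale) against the same ratio in floxed mice (x axis, log scale); lines mark a ratio of 1. Most genes cluster near 1, Rps19bp1, Rpl13, Rps2 and Rps4l lie high on both axes, and Rpl10l is low in knockout mouse 1 and not in floxed mouse 1 (ratio 0.282 in knockout and 1.62 in floxed).

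Genes of the mitochondrial ribosome and of ribosome production and control held some of the large differences, and their counts stand beside the 27.6% of all tested genes that passed. Of 77 mitochondrial ribosomal protein genes, 4 passed the test as higher and 11 as lower in knockout oocytes, with a median log2 fold change of -0.10. Mrps18a was lower at 55.5 ± 3.61 CPM in knockout and 106.6 ± 8.91 in floxed mice, and Mrpl19 was higher at 23.4 ± 5.79 CPM in knockout and 5.03 ± 0.973 in floxed mice (adjusted p of 0.000421 for Mrps18a and 0.000735 for Mrpl19). Of 13 other genes known for TOP mRNAs, 3 were higher and 2 lower. Pabpc1, the poly(A)-binding protein, had 80.3 ± 7.08 CPM in knockout and 17.7 ± 5.25 in floxed mice (log2 fold change 2.15, adjusted p = 0.000322). Of 12 regulators of TOP mRNAs, 3 were higher and none lower. Larp1, which binds the tract itself, had 49.5 ± 6.62 CPM in knockout and 18.4 ± 3.77 in floxed mice (1.39, adjusted p = 0.00119), and the others were Eif4ebp1, a repressor of translation under mTOR, and Rptor, a subunit of the mTOR complex.

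Of 15 genes of RNA polymerase I and its factors, which make ribosomal RNA, 3 were higher and 3 lower. Ubtf, which opens ribosomal DNA for transcription, had 75.8 ± 25.4 CPM in knockout and 21.98 ± 5.14 in floxed mice (1.75, adjusted p = 0.00151). Of 56 ribosome assembly genes in the table, 5 were higher and 6 lower. Nop56, a core protein of the particles that methylate ribosomal RNA, had 71.2 ± 12.1 CPM in knockout and 195.0 ± 17.5 in floxed mice (-1.50, adjusted p = 0.000235). Mdn1, a large motor protein that remodels the precursor of the large subunit, had 37.1 ± 2.55 CPM in knockout and 7.45 ± 2.43 in floxed mice (2.28, adjusted p = 0.000459). Of 3 ribosomal proteins with other names, Gnb2l1, the small subunit protein RACK1, passed as higher, with a log2 fold change of 0.24 (adjusted p = 0.0414). Whether any of these lists differs from the ribosomal protein genes in how often it changes was not tested.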

How the data were processed

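The deposited table holds the authors' raw read counts, whole numbers for each gene and each of 50 oocytes. Reads were aligned with STAR to mm10, per the submitters' processing notes. The counting tool and its rule for reads with several matches are unknown here. Column names were matched to sample labels, and 0 columns were left unused. Sample titles gave genotype and mouse. Counts were summed per mouse, and genotypes were tested with edgeR 4.0.16 under R 4.3.3 (TMM, filterByExpr with a minimum count of 10, robust quasi-likelihood test, Benjamini-Hochberg adjustment over 15029 genes). CPM and CPM per kilobase were computed from the deposited counts. The p-values measure the spread between mouse sums, and the sum of knockout mouse 1 is a single oocyte. The biological coefficient of variation was 35.4%, as a common value over all tested genes. Of 150 pairs of oocytes of a mouse, none matched within sampling noise (lowest chi-square per degree of freedom 5.06). DESeq2 1.42.0 and limma 3.58.1 served as alternatives. Rows were matched to GENCODE by RefSeq accession (16350) or symbol (186), and 78 were not matched. Start-site windows come from RefSeq on GRCm38.p6.

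Members and gene lists were chosen with earlier results of these data known. Named genes were those past the threshold, the extremes of level per length and of spread between oocytes, pairs of gene and copy, up to 8 genes whose groups did not overlap, 8 genes of known roles and up to 3 called genes per list with the smallest p. Of these, 2 genes are not reported here.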

Additional observations from a re-analysis of the deposited data

Results flagged for a closer look

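In each genotype, the mouse farthest from the other 3 was tested for standing apart by Dixon's ratio at its 95% critical value, for the 42 named genes and for their family's share of counts. Chance alone marks about 1 in 20 such groups when genes are not picked by their values. Some of these genes were named for their spread or for groups that did not overlap, so that rate is no yardstick here. Of 86 groups tested, 6 held a mouse that stood apart. Knockout mouse 1, with 1 oocyte, stood above the other knockout mice for Rps4l (129 CPM), Rps19bp1 (81.7 CPM), Rpl13 (75.7 CPM) and Rplp2 (50.8 CPM). Rps2, also high in mouse 1, was not among the 42 genes and was not tested in this way. Knockout mouse 3 was high for Rpl28 (30.4 CPM). Floxed mouse 3 was low for Rpl39l (76.9 CPM), still above every knockout mouse.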

How the results depend on the processing

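Of 756 recomputed values of named genes, 650 kept their direction and side of the threshold, 59 changed sign without passing it in either fit, 20 newly passed, 27 no longer passed and none changed sign while called. The count of 3 higher and 3 lower genes became 4 and 9 under DESeq2 (33.4% of all tested genes passed, against 27.6%), 2 and 5 after cyclic loess normalization (28.5%), 1 and 1 with mean log2 total per oocyte as a covariate (24.4%), 5 and 1 among oocytes of 4000000 to 5500000 counts (23.9%, an alternative chosen after seeing the data), and 3 and 8 without mouse 1 of both genotypes (43.9%). Leaving out 1 mouse gave 1 to 3 higher and 1 to 8 lower genes, with the fewest (1 and 1) without floxed mouse 2 or knockout mouse 3 and the most lower without knockout mouse 1, while 17.7% to 34.7% of all tested genes passed, and median log2 fold changes of -0.13 to -0.02. With the mouse number as a replicate block, 3 were higher and 7 lower (38.7% of all tested genes passed). In their deviation from the genotype's mean over 15029 genes, same-numbered mice correlated at 0.32, 0.00, 0.25 and 0.18. Whether mice of the same number share a source was not tested, and the labels do not say so. Among oocytes of 4000000 to 5500000 counts the median log2 fold change was 0.12 in place of -0.05, and the difference in share was 0.0349 percentage points in place of -0.0277; leaving out 1 mouse gave -0.0505 to -0.00312. With coding length the median level was 112.3 in place of 65.98 CPM per kb. The cause of these shifts was not tested. Depth limits Rps27, with at most 16 counts in an oocyte. Reads shared by gene and copy limit the pairs, as does the length used.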
